A study of Homo sapiens with 32 samples.

Results

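The 9 genes described here encode ligands of the HER (EGFR) family of receptors: *HBEGF*, *AREG*, *EREG*, *TGFA*, *BTC*, *EPGN*, *EGF*, *NRG1*, and *NRG2*. They were taken by symbol from the 25498 gene rows of the deposited tables, as 9 members of 1 gene family. They were followed through all 8 groups of the series to see which of them LNCaP cells transcribed when EGF or NRG-1 was added. The neuregulin genes *NRG3* and *NRG4* were also measured but are not among the 9. LNCaP is an established prostate cancer line, so the values describe 1 cell line. In the FBS group, cells were grown in complete serum. In the CSS group, serum was charcoal stripped, which removes steroid hormones. Cells of the other 6 groups were also in CSS and received 100 ng/mL EGF or 100 ng/mL NRG-1 for 5 minutes, 1 hour, or 4 hours. Each group had 4 RNA-seq libraries, 2 in each of 2 labelled batches, for 32 in all, and 1 CSS group served every time point.

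HER ligands are made as membrane-anchored precursors that proteases such as ADAM17 release from the cell surface, after which they act on the same cell or on its neighbors. EGF, TGFα, amphiregulin (*AREG*), and epigen (*EPGN*) bind EGFR. Heparin-binding EGF-like growth factor (*HBEGF*), betacellulin (*BTC*), and epiregulin (*EREG*) bind EGFR and HER4, and neuregulins bind HER3 or HER4. HER2 has no ligand of its own and signals as the partner of a ligand-bound receptor. A ligand gene that is transcribed after receptor activation can add to autocrine signaling, in which a cell stimulates its own receptors. RNA-seq measures the transcript and not the released protein, and in bulk RNA more transcribing cells and more transcript per cell cannot be told apart.

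*HBEGF* and *AREG* were the members that rose with both ligands, so their promoters are shown beside those of *EREG*, the neighbor of *AREG* on chromosome 4 whose transcript was nearly undetected, and *EGF*, whose transcript passed no test against CSS with either ligand. Each line gives the 250 bases upstream of the RefSeq start (GRCh38.p14), 5′ to 3′ on the strand of the gene, with capitals marking a match to a searched motif. They lie at chr5:140346604-140346853 (minus strand), chr4:74444886-74445135, chr4:74364895-74365144, and chr4:109912633-109912882 (plus strand for the last 3), in the order printed.
HBEGF: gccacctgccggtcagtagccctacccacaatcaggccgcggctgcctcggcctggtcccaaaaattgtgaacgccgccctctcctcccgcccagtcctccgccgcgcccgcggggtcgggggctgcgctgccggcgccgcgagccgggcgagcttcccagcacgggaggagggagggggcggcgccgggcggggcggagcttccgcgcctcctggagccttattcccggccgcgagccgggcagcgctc
AREG: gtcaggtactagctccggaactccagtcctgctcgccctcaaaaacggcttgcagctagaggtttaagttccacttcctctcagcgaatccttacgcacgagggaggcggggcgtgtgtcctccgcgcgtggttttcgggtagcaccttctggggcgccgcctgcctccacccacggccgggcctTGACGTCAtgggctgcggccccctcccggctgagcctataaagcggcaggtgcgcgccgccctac
EREG: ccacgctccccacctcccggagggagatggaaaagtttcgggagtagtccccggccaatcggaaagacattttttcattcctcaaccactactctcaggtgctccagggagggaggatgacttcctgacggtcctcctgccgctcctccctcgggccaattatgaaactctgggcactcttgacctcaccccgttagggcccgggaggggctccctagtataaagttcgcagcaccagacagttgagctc
EGF: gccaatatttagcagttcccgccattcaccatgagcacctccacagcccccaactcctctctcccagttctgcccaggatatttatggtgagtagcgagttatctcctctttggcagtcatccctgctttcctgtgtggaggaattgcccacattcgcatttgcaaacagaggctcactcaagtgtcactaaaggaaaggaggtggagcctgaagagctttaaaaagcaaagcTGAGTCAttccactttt
The motifs searched on both strands were the cAMP response element TGACGTCA, the AP-1 site TGANTCA, the EGR site GCGTGGGCG, the ETS site CCGGAAGT, and the CArG box, the core of the serum response element. The *AREG* promoter held TGACGTCA at 65 to 58 bases before the start, a motif present in 1.65% of 35116 RefSeq windows of this length. The *EGF* promoter held TGAGTCA, a match to the AP-1 site, at 17 to 11 bases before the start, and 6.57% of the windows held that motif. None of these letters occurred in the windows of *HBEGF* or *EREG*, nor in the windows found for *TGFA*, *BTC*, *EPGN*, or *NRG2* (8 of the 9 members matched, with 10 starts). The EGR, ETS, and CArG motifs were in 0.72%, 3.42%, and 1.16% of all windows. In the RefSeq gene order, *EPGN*, *EREG*, *AREG*, and *BTC* follow one another on chromosome 4.

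Library totals ranged from 63822654 to 92401724 counts (median 77866194), so only the lowest members are limited by counting error. All 9 luminal prostate markers, among them *KLK3* and *KRT8*, were present, with TPM from 3.01 to 2824. Of 13 markers of basal, fibroblast, immune, endothelial, and neuroendocrine cells, 9 were below 1 TPM in every library and none exceeded 5. The test covered the 16995 genes that reached 5 counts in 3 or more libraries, and 6 of the 9 members passed this filter. Here "rose" and "fell" mean an adjusted *P* value below 0.05 from the edgeR quasi-likelihood test with Benjamini-Hochberg adjustment over all tested genes. A differentially expressed gene (DEG) was also changed by more than 1 on the log2 scale, up or down. Adjusted *P* values below come from that test unless another is named. Every comparison against CSS used the same 4 CSS libraries, so those comparisons are not independent of each other.

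Without added ligand, 3 members made up most of the ligand transcripts. TPM is normalized for transcript length and so allows genes to be set beside each other. In CSS, *HBEGF* had a mean of 4.63 TPM ± 0.724 (SD, n = 4), *TGFA* had 3.56 ± 0.541, and *EGF* had 3.31 ± 0.465. The ranges of these 3 genes over the CSS libraries overlapped in part, from 3.91 to 5.34 TPM for *HBEGF*, from 3.00 to 4.12 for *TGFA*, and from 2.79 to 3.79 for *EGF*. *BTC* (0.480 ± 0.154 TPM) and *AREG* (0.420 ± 0.182) were lower and did not differ beyond their spread. *NRG2* had a mean of 0.010 TPM.

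*EREG*, *EPGN*, and *NRG1* were at or below 3 counts in every one of the 32 libraries and were not tested. *EREG* had 0 counts in 30 libraries and at most 2, *EPGN* had 0 in 22 and at most 3, and *NRG1* had 0 in 26 and at most 2. A count of 0 allows up to 3 counts, which is 0.0325 to 0.0470 CPM (a gene's count scaled to the library total) at these totals. A library with 0 counts therefore does not exclude a level up to this bound. *NRG1* encodes the ligand that was added as protein in 3 of the groups, and its own transcript summed to 0, 1, and 2 counts over the 4 libraries of NRG-1 at 5 minutes, 1 hour, and 4 hours. None of these 3 genes reached more than 3 counts in a library of any stimulated group.

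**Figure D1:**
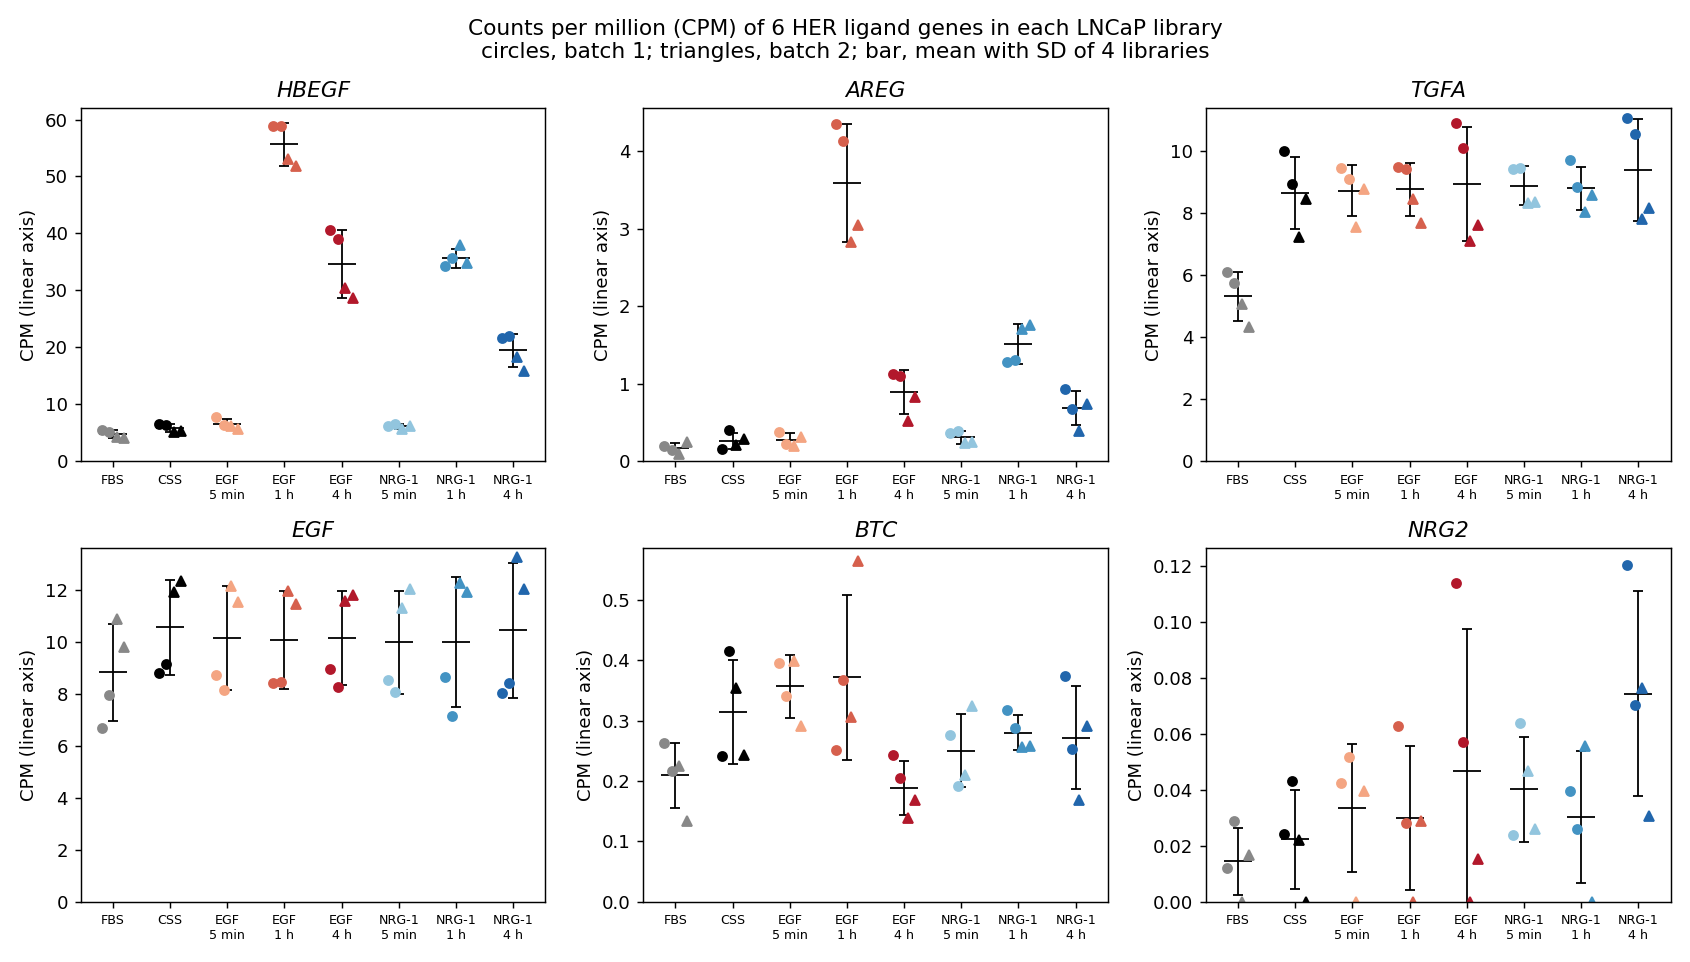
CPM on TMM-scaled library sizes (y axis, linear, a separate scale for each gene) of the 6 tested ligand genes in the 8 groups (x axis). Points are libraries (circles, batch 1; triangles, batch 2) and bars are the mean with the SD of 4 libraries. *HBEGF* stands above CSS at 1 hour and 4 hours of either ligand. *AREG* does so too, except at 4 hours of NRG-1, where its lowest library (0.397 CPM) lies just under the highest CSS library (0.401). *TGFA* is lowest in FBS, and *EGF* separates by batch in every group.

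*HBEGF* was the most abundant member in every group by mean TPM and rose 9.46-fold at 1 hour of EGF. Its CPM (scaled by TMM, for comparison between libraries of 1 gene) in the 4 CSS libraries was 6.58 and 6.40 in batch 1 and 5.20 and 5.40 in batch 2. After 1 hour of EGF it was 58.8 and 58.8 in batch 1 and 53.0 and 51.9 in batch 2, and every one of these libraries was above every CSS library. After 1 hour of NRG-1 it was 34.2 and 35.7 in batch 1 and 37.9 and 34.8 in batch 2, again with no overlap with CSS. After 4 hours it was lower than at 1 hour with either ligand and still above CSS in all 8 libraries, at 40.5, 39.0, 30.3, and 28.7 for EGF and at 21.7, 21.9, 18.3, and 15.9 for NRG-1. The log2 fold change against CSS was 3.24 (SE 0.08, adjusted *P* = 1.87e-22) at 1 hour of EGF and 2.55 (SE 0.08, adjusted *P* = 3.23e-20) at 4 hours. With NRG-1 it was 2.61 (SE 0.08, adjusted *P* = 3.52e-20) at 1 hour and 1.72 (SE 0.08, adjusted *P* = 1.92e-16) at 4 hours. In linear terms these were 9.46-, 5.85-, 6.10-, and 3.30-fold. Within batch 1 and batch 2 the log2 fold change at 1 hour was 3.19 and 3.31 for EGF and 2.43 and 2.78 for NRG-1, and each batch alone passed the test at both times with both ligands.

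*AREG* started from a low level and had the largest fold change of the members at 1 hour of EGF. Its CSS libraries held 13, 28, 19, and 24 counts (0.157, 0.401, 0.210, and 0.292 CPM, batch 1 before batch 2). With 1 hour of EGF they held 346, 293, 232, and 211 counts (4.35, 4.13, 2.83, and 3.05 CPM), so that the 2 batches did not overlap within the group. With 1 hour of NRG-1 they held 97, 100, 153, and 150 counts (1.28, 1.31, 1.70, and 1.76 CPM), and here batch 2 was the higher. All 8 of these libraries were above all CSS libraries. At 4 hours CPM was 1.13, 1.10, 0.516, and 0.827 for EGF and 0.934, 0.674, 0.397, and 0.735 for NRG-1, the lowest NRG-1 library lying just under the highest CSS library. The log2 fold change against CSS was 3.76 (SE 0.25, adjusted *P* = 1.57e-12) at 1 hour and 1.75 (SE 0.27, adjusted *P* = 4.32e-06) at 4 hours of EGF, or 13.5- and 3.36-fold. With NRG-1 it was 2.56 (SE 0.26, adjusted *P* = 1.96e-08) at 1 hour and 1.38 (SE 0.28, adjusted *P* = 0.000219) at 4 hours, or 5.88- and 2.60-fold. In batch 2 alone the NRG-1 change at 4 hours was 1.19 and did not pass (adjusted *P* = 0.0716). The hg19 assembly holds a near-identical second copy of *AREG*. The counts of *AREG* were whole in every library, with no fraction of a read shared out, but whether the annotation used listed the second copy is not given in the sources used here, and the absolute level of *AREG* is uncertain.

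Thus 2 of the 6 tested members were DEGs, both higher, in each of the 4 comparisons at 1 hour and 4 hours. Among all 16995 genes, the share called DEG and higher was 1.46% at 1 hour and 5.86% at 4 hours of EGF, and 0.806% at 1 hour and 4.87% at 4 hours of NRG-1. Of the 6 tested members, 5 had at least 8 counts in every library. *NRG2* passed the filter through stimulated libraries, since no CSS or FBS library reached 5 counts, and the 3 untested members are not covered by these counts.

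**Figure D2:**
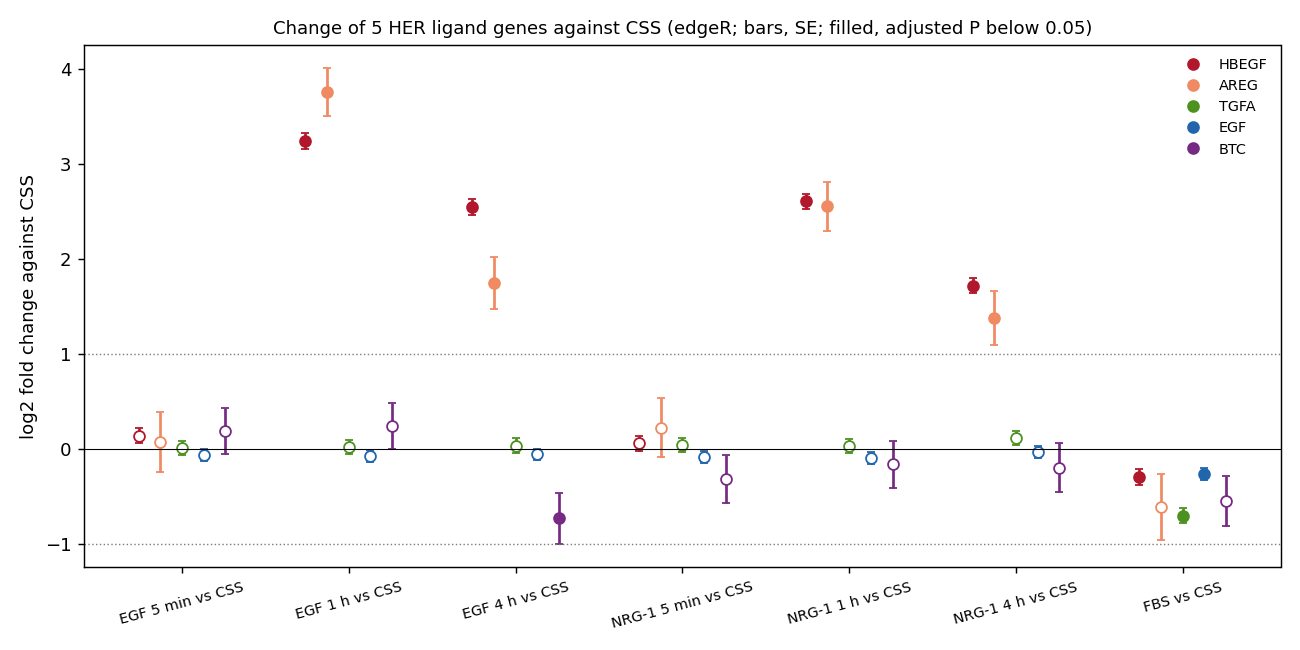
Log2 fold change against CSS (y axis) of 5 ligand genes in 7 comparisons (x axis), from edgeR. Bars are SE, filled points have an adjusted *P* value below 0.05, and dotted lines mark a log2 fold change of 1 in either direction. *HBEGF* (3.24 and 2.61) and *AREG* (3.76 and 2.56) lie above the upper line at 1 hour of EGF and NRG-1, while *TGFA* and *EGF* lie near 0 with either ligand.

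At 5 minutes no member rose or fell with either ligand, and none had an unadjusted *P* value below 0.05 by edgeR. The DESeq2 Wald test also called 0 members. The background was 0.00588% of all genes (1 gene) for EGF and 0% for NRG-1. The CPM of *HBEGF* was 6.50 ± 0.896 after EGF and 6.13 ± 0.397 after NRG-1, against 5.90 ± 0.695 in CSS, and the ranges overlapped. Of the 4 pairs of libraries with the same batch and replicate number, *HBEGF* was higher than in CSS in 4 with EGF (log2 fold change 0.14, 95% confidence interval -0.02 to 0.30) and in 3 with NRG-1 (0.06, -0.10 to 0.22), and neither passed with the pairs as a block (adjusted *P* = 1.0 and 0.952). *AREG* was at 0.280 ± 0.0853 and 0.309 ± 0.0809 CPM against 0.265 ± 0.106.

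*TGFA*, which encodes TGFα, an EGFR ligand made by many carcinomas, passed the test with neither ligand at any time, its 6 log2 fold changes against CSS lying between 0.01 and 0.11 with 95% confidence limits between -0.13 and 0.26. Its CPM in CSS was 10.0, 8.92, 7.23, and 8.44, and at 1 hour of EGF it was 9.49, 9.43, 8.45, and 7.68, so the groups overlapped. In FBS it was 6.10, 5.75, 5.07, and 4.32 CPM, below every CSS library. This was a fall of 0.70 on the log2 scale (SE 0.08, adjusted *P* = 1.05e-08), or 0.614 of the CSS level, and both batches alone passed.

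The *EGF* gene itself, whose protein product was the added ligand in 3 groups, passed the test with neither ligand at any time. Its CPM was 8.83, 9.15, 11.9, and 12.4 in CSS and 8.42, 8.47, 12.0, and 11.5 at 1 hour of EGF. The 6 log2 fold changes with EGF or NRG-1 lay between -0.09 and -0.03, with 95% confidence limits between -0.21 and 0.09, and none passed (lowest adjusted *P* = 0.478). *EGF* differed between batches in every group, from 7.14 to 9.15 CPM in the 14 batch 1 libraries outside FBS and from 11.3 to 13.3 in the 14 of batch 2, with no overlap. In FBS the libraries were at 6.69, 7.96, 10.9, and 9.81 CPM, each lower than every CSS library of its batch. The fall of 0.26 on the log2 scale (SE 0.06, adjusted *P* = 0.000889) was not called without the batch term (adjusted *P* = 0.315) or in batch 2 alone (adjusted *P* = 0.0861).

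*BTC* fell with EGF at 4 hours, at low counts, where 24.6% of all genes fell. Its CSS libraries were at 0.242, 0.415, 0.354, and 0.243 CPM (20 to 32 counts), and the 4-hour EGF libraries were at 0.242, 0.205, 0.138, and 0.168 CPM (11 to 18 counts). The groups met at 0.242 CPM, and the log2 fold change was -0.73 (SE 0.27, adjusted *P* = 0.0257). The call was lost in batch 1 alone (adjusted *P* = 0.218), in batch 2 alone (adjusted *P* = 0.162), and when either CSS batch 1 replicate 2 (0.0989), CSS batch 2 replicate 1 (0.0807), or the first or second batch 2 library of EGF at 4 hours (0.0861 and 0.0522) was left out. Between 1 hour and 4 hours of EGF *BTC* fell by 0.97 on the log2 scale (SE 0.27, adjusted *P* = 0.00365), by 0.48 in batch 1 and by 1.47 in batch 2, and batch 1 alone did not pass (adjusted *P* = 0.297). With NRG-1, *BTC* was at 0.271 CPM ± 0.0854 at 4 hours and passed in no comparison.

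*NRG2*, a neuregulin that binds HER3 and HER4, was at 9 counts or fewer in every library and at 0 in 6. Its 4 CSS libraries held 2, 3, 2, and 0 counts and the NRG-1 libraries at 4 hours held 9, 5, 5, and 2. The edgeR test did not call it (log2 fold change 1.69, SE 0.71, adjusted *P* = 0.0544), and it passed without NRG-1 4-hour batch 1 replicate 2 (adjusted *P* = 0.0480). Since *NRG2* entered the test through stimulated libraries such as these, its difference from CSS is a description. With EGF at 4 hours the libraries held 8, 5, 0, and 1 counts, all but 1 of them in batch 1.

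In TPM summed over the 9 genes, the ligand transcripts were at 12.4 ± 0.991 in CSS, 58.2 ± 5.57 at 1 hour of EGF, and 35.9 ± 3.81 at 1 hour of NRG-1, and the ranges did not overlap with CSS. At 4 hours the sum was 34.0 ± 4.96 with EGF and 22.5 ± 3.67 with NRG-1, and in FBS it was 8.20 ± 1.28. *NRG3* and *NRG4* are outside this sum, so the shares below are of the 9 genes alone. *NRG3* was at 8.46 TPM ± 3.65 in CSS and 9.025 ± 3.64 at 1 hour of EGF. The sum over the 9 genes was not tested. *HBEGF* made up 37.2% ± 3.18 of it in CSS, 77.0% ± 0.361 at 1 hour of EGF, 75.7% ± 2.14 at 4 hours of EGF, 74.4% ± 1.92 at 1 hour of NRG-1, and 63.5% ± 3.47 at 4 hours of NRG-1. *AREG*, with the doubt on its absolute level given above, went from 3.35% ± 1.26 in CSS to 9.92% ± 1.48 at 1 hour of EGF and 6.33% ± 0.855 at 1 hour of NRG-1. Its mean TPM at 1 hour of EGF was 5.83 ± 1.36, beside 3.70 ± 0.481 for *TGFA* and 3.25 ± 0.548 for *EGF*, and its place among them is subject to the same doubt. The share of *TGFA* was 28.6% ± 2.89 in CSS and 6.35% ± 0.276 at 1 hour of EGF, at a TPM that overlapped between the groups.

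**Figure D3:**
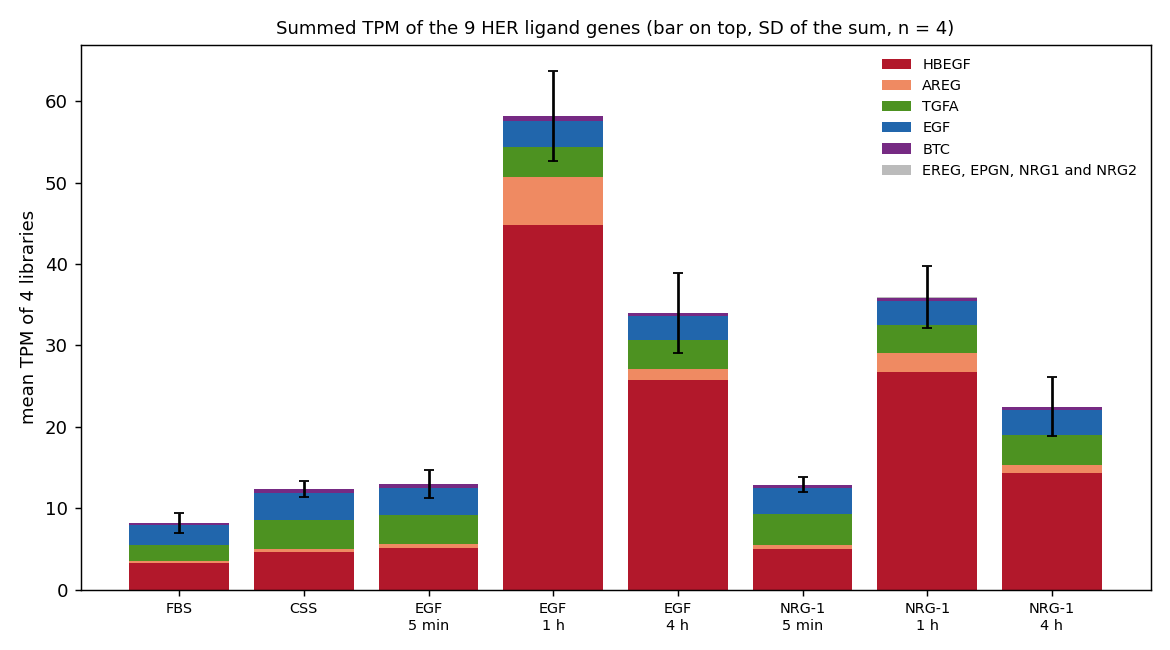
Mean TPM of 4 libraries (y axis) stacked over the 9 ligand genes in the 8 groups (x axis), with the SD of the sum. The sum is 12.4 TPM in CSS and 58.2 at 1 hour of EGF, and *HBEGF* makes up 77.0% of the latter. *EREG*, *EPGN*, *NRG1*, and *NRG2* are too low to be seen.

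The comparison of EGF with NRG-1 asked whether the 2 ligands differed in the transcripts they induced. It set no CSS library against the ligands, although the CSS libraries were part of the fit and of its estimate of the spread. At 1 hour *HBEGF* and *AREG* were both higher with EGF. *HBEGF* was 1.55-fold higher (log2 difference 0.63, SE 0.07, adjusted *P* = 1.85e-06), and it was higher in 4 of 4 pairs of libraries with the same batch and replicate number. *AREG* was 2.30-fold higher (log2 difference 1.20, SE 0.21, adjusted *P* = 0.00068) in 4 of 4 pairs. The size of both differences varied between batches. In batch 1 the log2 difference was 0.76 (adjusted *P* = 3.43e-06) for *HBEGF* and 1.71 (adjusted *P* = 0.000161) for *AREG*, and in batch 2 it was 0.53 (adjusted *P* = 0.101) and 0.77 (adjusted *P* = 0.911), so neither passed in batch 2 alone, which had 2 libraries a group. *AREG* was the 1 DEG among the 6 tested members, where 0.171% of all genes were DEGs and 0.941% were higher with EGF at an adjusted *P* value below 0.05.

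At 4 hours *HBEGF* was 1.78-fold higher with EGF (log2 difference 0.83, SE 0.07, adjusted *P* = 6.68e-08), with 0.87 in batch 1 and 0.79 in batch 2, and both batches passed. It was the 1 member that passed, where 1.25% of genes were higher with EGF. By edgeR and by DESeq2, 0 members were DEGs at this time (0.171% of all genes were), and 1 had an unadjusted *P* value below 0.05 by edgeR. The CPM of *AREG* was 0.893 ± 0.286 for EGF and 0.685 ± 0.222 for NRG-1, and the difference of 0.37 (95% confidence interval -0.11 to 0.84) did not pass (adjusted *P* = 0.639), although *AREG* was higher with EGF in 4 of 4 pairs. With the pairs as a block it did not pass either (adjusted *P* = 0.39). At 5 minutes 0 members and 0% of all genes passed in edgeR, and 0 members had an unadjusted *P* value below 0.05.

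From 1 hour to 4 hours *HBEGF* and *AREG* fell with both ligands. With EGF, *AREG* fell by 2.01 (SE 0.22, adjusted *P* = 9.06e-09) and *HBEGF* by 0.69 (SE 0.07, adjusted *P* = 6.92e-09) on the log2 scale, so that *AREG* was at 0.248 and *HBEGF* at 0.619 of its 1-hour level. With NRG-1, *AREG* fell by 1.18 (SE 0.23, adjusted *P* = 0.000153) and *HBEGF* by 0.89 (SE 0.07, adjusted *P* = 9.51e-11). The fall of *AREG* with NRG-1 was 0.69 in batch 1 and 1.60 in batch 2. *AREG* was the 1 DEG among the members in each of these comparisons, where the share of genes called DEG and lower was 3.39% for EGF and 2.27% for NRG-1. Without the fold limit, 3 members (with *BTC*) fell under EGF and 2 under NRG-1, beside 21.5% and 18.5% of all genes. Whether *AREG* fell more than *HBEGF* was not tested.

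**Figure D4:**
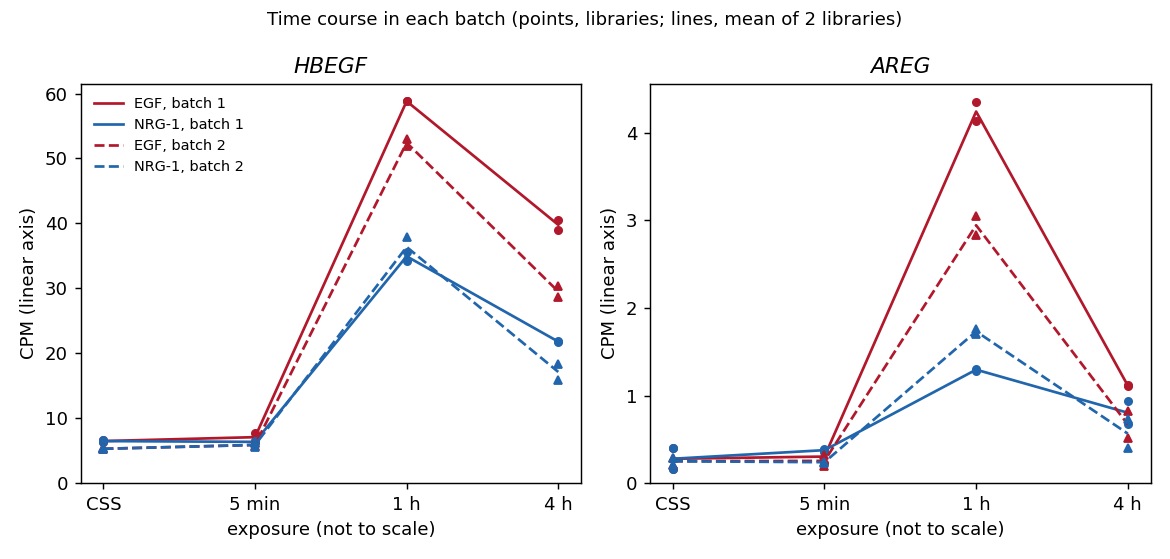
CPM (y axis, linear) of *HBEGF* and *AREG* in CSS and at 5 minutes, 1 hour, and 4 hours (x axis, not to scale) of EGF or NRG-1, drawn separately for each batch. Points are libraries and lines join the means of 2 libraries. In both batches the 1-hour values with EGF lie above those with NRG-1, and the *AREG* gap is wider in batch 1 (log2 difference 1.71) than in batch 2 (0.77).

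Ordered by mean CPM, *HBEGF* was highest at 1 hour of EGF (55.6 ± 3.72), followed by 1 hour of NRG-1 (35.7 ± 1.64) and 4 hours of EGF (34.6 ± 6.00), which overlapped, and then by 4 hours of NRG-1 (19.5 ± 2.87). EGF at 5 minutes, NRG-1 at 5 minutes, and CSS came next and overlapped each other. FBS had the lowest mean (4.80 ± 0.675) and overlapped with CSS. For *AREG* the order was 1 hour of EGF (3.59 ± 0.759), 1 hour of NRG-1 (1.51 ± 0.253), and then 4 hours of EGF and of NRG-1, which overlapped. FBS again had the lowest mean (0.175 ± 0.0666) and overlapped with CSS.

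Against CSS, cells in FBS had lower *HBEGF*, *TGFA*, and *EGF*. *HBEGF* was at 5.53, 5.20, 4.33, and 4.13 CPM in FBS, each lower than both CSS libraries of its batch, and fell by 0.30 on the log2 scale (SE 0.08, adjusted *P* = 0.00349). Without the batch term it did not pass (adjusted *P* = 0.0543). *AREG* (log2 fold change -0.61, adjusted *P* = 0.148) and *BTC* (-0.55, adjusted *P* = 0.083) did not pass, and both passed without CSS batch 1 replicate 1 (adjusted *P* = 0.0459 and 0.0443). By edgeR and by DESeq2, 0 members were DEGs, and 4 had an unadjusted *P* value below 0.05 by edgeR. Among all genes 26.8% were lower in FBS at an adjusted *P* value below 0.05 and 8.71% were DEGs, so 3 of 6 members lower stands beside a large background.

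For *HBEGF*, *TGFA*, and *EGF*, the 3 members whose average log2 CPM was not below 0, the most similar genes were found by the Pearson correlation of batch-centered log2 CPM over the 32 libraries among 12018 genes. These libraries share groups, so the correlations describe the pattern over groups and were not tested. Genes chosen this way had to move with the member, so their changes are given as a description. *HBEGF* was most like *DUSP10*, a MAP kinase phosphatase (r = 0.99), *MAFF*, a small MAF transcription factor (r = 0.98), and *NAB2*, a corepressor of EGR proteins (r = 0.98). At 1 hour and 4 hours of EGF, *MAFF* had log2 fold changes of 4.18 and 2.62, *NAB2* of 3.35 and 2.91, and *DUSP10* of 2.06 and 1.51. *TGFA* was most like *KIAA1191*, *RBL2*, and *WLS* (r = 0.95, 0.95, and 0.95), with log2 fold changes in FBS of -0.37, -0.56, and -0.56. *EGF* had weaker matches, *PGAP1* (r = 0.75), *MAPK13* (r = 0.74), and *NACA2* (r = 0.73). *AREG*, *BTC*, and *NRG2* were below the expression limit of the rule.

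Beyond the ligands, 27 genes of HER receptors, ligand processing, and negative feedback were examined, and all were tested. At 1 hour of EGF 2 rose and 2 fell, and at 1 hour of NRG-1 2 rose and 2 fell, while 6% of all genes rose and 3.51% fell under EGF and 4.45% and 2.28% did so under NRG-1. At 4 hours 14 rose and 7 fell with EGF and 13 rose and 6 fell with NRG-1, where 24.6% of all genes rose and 24.6% fell with EGF and 21.6% and 21% with NRG-1. The median log2 fold change of the 27 was 0.00 and -0.04 at 1 hour and 0.21 and 0.16 at 4 hours, for EGF and NRG-1 in turn. At 5 minutes 0 passed by edgeR with either ligand and 0 had an unadjusted *P* value below 0.05.

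**Figure D5:**
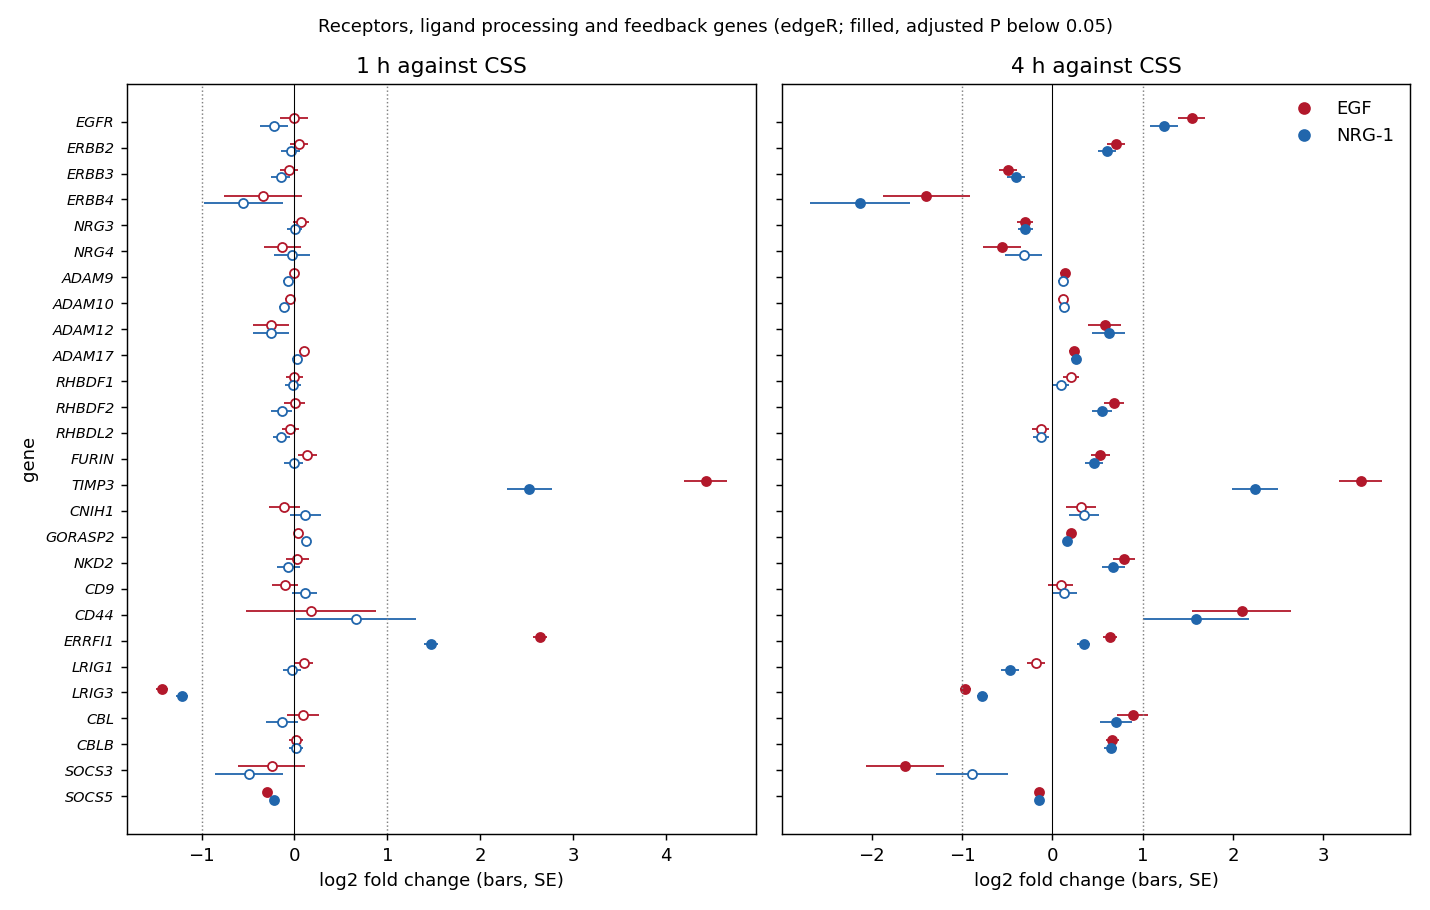
Log2 fold change against CSS (x axis, bars SE) of 27 genes of receptors, other ligands, ligand processing, and feedback (y axis) at 1 hour and 4 hours. Red is EGF, blue is NRG-1, filled points have an adjusted *P* value below 0.05 in edgeR, and dotted lines mark 1 in either direction. *TIMP3* and *ERRFI1* are highest and *LRIG3* lowest at 1 hour, and *EGFR* passed the test at 4 hours and not at 1 hour.

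Of the receptors, *ERBB2* (98.1 TPM ± 16.6) and *ERBB3* (73.9 ± 7.18) were the most abundant in CSS, *EGFR* was at 9.63 ± 2.23, and *ERBB4*, which encodes HER4, was at 0.020 ± 0.00816. None of the 4 passed at 1 hour. At 4 hours *EGFR*, the receptor for HB-EGF and amphiregulin, rose with EGF (30.4 to 88.3 CPM, log2 fold change 1.54, SE 0.15, adjusted *P* = 1.29e-09) and with NRG-1 (71.7 CPM, log2 fold change 1.24, SE 0.15, adjusted *P* = 9.88e-08). *ERBB2* rose (log2 fold change 0.71 and 0.60) and *ERBB3* fell (-0.49 and -0.40) with EGF and NRG-1. *ERBB4* fell at 4 hours (-1.40 and -2.13) at 0 to 16 counts a library. Its EGF value did not pass without 4-hour EGF batch 1 replicate 1 (adjusted *P* = 0.0613), CSS batch 1 replicate 2 (0.0504), or CSS batch 2 replicate 1 (0.0568). In batch 2 alone neither *ERBB3* nor *ERBB4* passed with either ligand at 4 hours (adjusted *P* from 0.137 to 0.51), and *ERBB2* did not pass with NRG-1 (adjusted *P* = 0.0973), where its lowest library lay just under the highest CSS library. The 2 neuregulin genes of this list outside the 9 members, *NRG3* and *NRG4*, encode HER4 ligands. *NRG3*, chosen for naming after its values were seen, was at 8.46 TPM ± 3.65 in CSS, above the mean of any of the 9 members there. It differed between batches (17.5 to 24.6 CPM in the 14 batch 1 libraries outside FBS, 8.09 to 13.6 in those of batch 2), fell in FBS (log2 fold change -1.08, SE 0.09, adjusted *P* = 3.06e-11), and fell at 4 hours of EGF and NRG-1 by 0.30 on the log2 scale with either.

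Among processing genes, *ADAM17*, the main sheddase of *HBEGF*, *AREG*, and *TGFA* products, did not pass at 1 hour and was slightly higher at 4 hours (log2 fold change 0.24 with EGF, adjusted *P* = 0.000858, and 0.26 with NRG-1, adjusted *P* = 0.00042), with neither value passing in batch 2 alone (adjusted *P* = 0.296 and 0.12) or in limma on log2(TPM + 1) (adjusted *P* = 0.051 and 0.065). *TIMP3*, an inhibitor of ADAM17, rose most of the 27 at 1 hour of EGF. Its CSS libraries held 13 to 30 counts and its EGF libraries at 1 hour held 304 to 606, with log2 fold changes of 4.43 (SE 0.23) at 1 hour and 3.41 at 4 hours of EGF and of 2.53 and 2.24 with NRG-1. It differed between EGF and NRG-1 at 1 hour (log2 difference 1.90, SE 0.19, adjusted *P* = 1.62e-07) and at 4 hours (1.17, adjusted *P* = 0.000903). *CD44*, which encodes a heparan sulfate–bearing partner of HB-EGF, rose at 4 hours (2.10 and 1.59) at 0 to 21 counts a library. Its NRG-1 value did not pass without CSS batch 1 replicate 2 (adjusted *P* = 0.105), CSS batch 2 replicate 2 (0.0809), 4-hour NRG-1 batch 1 replicate 2 (0.108), or 4-hour NRG-1 batch 2 replicate 2 (0.0691), and neither value passed in batch 2 alone (0.0675 with EGF and 0.511 with NRG-1).

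Among negative regulators, *ERRFI1*, which encodes the EGFR inhibitor MIG6, rose from 34.8 CPM ± 1.64 in CSS to 219 ± 41.5 at 1 hour of EGF (log2 fold change 2.65, SE 0.08, adjusted *P* = 7.85e-21) and 96.3 ± 6.38 at 1 hour of NRG-1 (1.47, SE 0.08, adjusted *P* = 4.94e-15). EGF gave the higher level of the 2 ligands at 1 hour (log2 difference 1.18, adjusted *P* = 4.08e-11). *LRIG3*, a membrane protein related to the EGFR inhibitor LRIG1, fell at 1 hour, from 17.9 CPM in CSS to 6.64 under EGF and 7.72 under NRG-1 (log2 fold change -1.43 and -1.21). The 2 ligands did not differ for *LRIG3* at 1 hour beyond the test's threshold (log2 difference -0.22, adjusted *P* = 0.121). *SOCS3*, which encodes a cytokine signaling inhibitor, was at 1 to 19 counts and fell at 4 hours of EGF (-1.63, adjusted *P* = 0.0025), while its NRG-1 value did not pass (-0.89, adjusted *P* = 0.0765). The EGF value did not pass in batch 2 alone (adjusted *P* = 0.179), and the NRG-1 value passed without CSS batch 1 replicate 2 (0.0377) or CSS batch 2 replicate 1 (0.0436).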

How the data were processed

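Transcripts of LNCaP cells were measured by strand-specific RNA-seq of polyA RNA in 32 libraries, grouped by the labels, which number replicates and batches. The sample titles do not say whether the replicates of a batch were separate cultures. Per the labels and methods, the authors trimmed reads with Trimmomatic 0.36 and quantified genes with STAR 2.7.0f and RSEM on hg19. The authors deposited an expected count (the RSEM estimated count, not normalized) for each gene and library. The deposited TPM values were normalized by the authors for length and library total, and replicates were not pooled. Reads that fit more than 1 gene are divided by RSEM, and 11.18% of deposited counts had a fractional part above 0, with no tolerance (0% for the 9 members).

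Expected counts were rounded and tested with the edgeR 4.0.16 quasi-likelihood method (R 4.3.3; TMM; group and batch terms; all libraries; genes reaching 5 counts in 3 or more libraries), with Benjamini-Hochberg adjustment over 16995 genes within each of 12 comparisons. CPM used TMM-scaled totals. The SE was derived from the F statistic of the test. Confidence intervals used a normal quantile with that SE, so they are approximate and somewhat narrow for this test. DESeq2 1.42.0, limma 3.58.1 on log2(TPM + 1) or log2(TPM + 0.1), and other settings were alternatives. Same-numbered libraries deviated together (r from 0.13 to 0.57 in 112 pairs, all above 0.1), so the numbers were used as a block in 1 alternative. These pairs share a batch, which is already a term of the main fit. After batch means were removed, r ranged from -0.06 to 0.43, with 54 of 112 above 0.1. With 2 libraries per group and batch, both replicate numbers of a batch then give the same r values.

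Named genes were the 9 members, 4 receptors, *ADAM17*, every listed pathway gene that was a DEG at 1 or 4 hours of either ligand, and the 3 genes most like each member above the expression limit. Members and lists were chosen with earlier results of these data known. Promoter sequences are from RefSeq (GRCh38.p14).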

Additional observations from a re-analysis of the deposited data

Results flagged for a closer look

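Among the values of 6 members in 8 groups (48 sets of 4 libraries), Dixon's test marked 0 libraries as far from the others, where about 2.4 would be marked by chance. The test took no account of batch. It can miss a distant library where the batches of a set lie apart, as for *EGF*, so it does not show that the libraries were alike. The response differed between EGF and NRG-1, by a direct test of the difference, for *AREG* at 1 hour (log2 difference 1.20), for *HBEGF* at 1 hour (0.63), and for *HBEGF* at 4 hours (0.83), all higher with EGF and all in 4 of 4 same-numbered pairs. The adjusted *P* values by edgeR were 0.00068, 1.85e-06, and 6.68e-08. In batch 2 alone, with 2 libraries a group, the 1-hour differences were 0.77 and 0.53 and did not pass (adjusted *P* = 0.911 and 0.101), and the 4-hour difference was 0.79 (adjusted *P* = 0.013).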

How the results depend on the processing

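The 6 tested members gave 72 values over 12 comparisons. Of 1342 alternative values for them, 1319 kept their direction where called and their side of the threshold, 13 lost the call, 10 gained it, and 0 called values reversed. Of the 1319, 74 were differences that passed in neither analysis and changed sign. CPM on unscaled totals moved 0 of 48 levels beyond the spread between libraries. The replicate block gave 2 DEGs at 1 and 4 hours of either ligand, as in the main analysis, and changed no call of a member.

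Counts of DEGs among the members moved as follows. On log2(TPM + 1) in limma, with or without a filter on low values, the count went from 2 to 1 at 4 hours of EGF, from 2 to 1 at 4 hours of NRG-1, and from 1 to 0 for 4 hours against 1 hour of NRG-1. The added 1 shrinks log2 changes at levels like those of *AREG* (mean 0.420 TPM in CSS and 1.33 at 4 hours of EGF), so the fold limit was harder to reach there. With no fold-change limit it went from 0 to 3 for FBS, from 1 to 2 and from 0 to 1 for EGF against NRG-1 at 1 and 4 hours, from 1 to 3 for 4 hours against 1 hour of EGF, and from 1 to 2 for that comparison with NRG-1. In batch 2 alone it was 1 at 4 hours of NRG-1, 0 for EGF against NRG-1 at 1 hour, and 2 for 4 hours against 1 hour of either ligand. In batch 1 alone it was 0 for 4 hours against 1 hour of NRG-1. Leaving out single libraries gave 1 to 2 for 4 hours against 1 hour of EGF (2 without 1-hour EGF batch 1 replicate 1, 4-hour EGF batch 1 replicate 1, or 1-hour EGF batch 2 replicate 1), 1 to 2 for that of NRG-1 (2 without 1-hour NRG-1 batch 2 replicate 1), and 2 to 3 at 4 hours of NRG-1. The added DEG in both NRG-1 counts was *NRG2*. It entered the test through stimulated libraries, so these gains are a description.

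The same alternatives were applied to the pathway list after seeing the data. There 7 of 27 genes were DEGs at 1 or 4 hours of either ligand. At 1 hour of either ligand 2 were higher and 1 lower. At 4 hours 3 were higher and 2 lower with EGF, and 3 and 1 with NRG-1. Among all 16995 genes, 248 were higher and 45 lower at 1 hour of EGF, and 996 and 629 at 4 hours. With NRG-1 they were 137 and 31 at 1 hour and 828 and 432 at 4 hours. Of the 7, 4 remained in batch 2 alone and in limma on log2(TPM + 1), on log2(TPM + 0.1), and on log2(TPM + 1) with no filter. *CD44*, *ERBB4*, and *SOCS3* were lost each time. Their mean TPM in CSS was 0.015, 0.020, and 0.0875. At such levels the added 1 or 0.1 held their changes under the fold limit, so the limma settings could not call them DEGs. Only batch 2 alone could have kept them. Depth limits *AREG*, *BTC*, and *NRG2*, and a single line, 1 dose of each ligand, and 1 CSS group for all times limit the design. Beyond the effect of the constant added in limma, the cause of these movements was not tested.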
